A study of Homo sapiens with 10 samples.

Results

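The clustered protocadherins are cell-surface adhesion proteins of the cadherin superfamily, and 55 of the 23245 genes in the deposited tables belong to them by symbol: 15 alpha, 18 beta and 22 gamma members. They lie in 3 tandem clusters on the plus strand of chromosome 5 (hg19), with first exons of the alpha cluster between positions 140165725 and 140348916, the beta genes between 140430979 and 140627801, and first exons of the gamma cluster between 140710081 and 140871267. In neurons each cell switches on its own small set of members by choosing among their promoters, and the resulting mixture of proteins lets a nerve cell tell its own branches from those of its neighbours. Each member has its own promoter and one large first exon that encodes the outer part of the protein; most promoters carry a conserved element with the core CGCT, and CTCF and cohesin loop the promoters to distant enhancers. The 5 C-type members, PCDHAC1, PCDHAC2, PCDHGC3, PCDHGC4 and PCDHGC5, sit at the downstream ends of the alpha and gamma clusters and are known in mouse neurons for expression that is less random than that of the others. Promoter methylation and Polycomb-type silencing of these clusters are described in several cancers.

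The series measured RNA after expression of PcTF, a synthetic activator that joins the histone-binding chromodomain of CBX8, which recognizes histone H3 trimethylated at lysine 27, to the red fluorescent protein mCherry and the activation domain VP64. PcTF plasmid (2 µg) was transfected into U-2 OS osteosarcoma and SK-N-SH neuroblastoma cells, harvested at 96 h. It was also transfected into K562 leukemia cells, harvested at 48 h. Each was set against a mock transfection of the same line with vehicle only. The mock cells received no plasmid, so plasmid delivery and PcTF cannot be told apart. Only part of the transfected cells carried the red tag. By the study's flow cytometry this part fell with time to a small minority in each line. In addition, U-2 OS lines with a stably integrated, doxycycline-inducible transgene (1 µg/mL, 96 h) expressed either PcTF or ΔTF, a truncated form without the histone-binding domain. The labels give 2 stable U2OS-PcTF libraries and 1 stable U2OS-ΔTF library, all other groups have 1 library, and the study's methods describe the replicates of the stable lines differently. Each stable line is a single engineered line, so line and transgene cannot be told apart. All conditions but stable PcTF have 1 library, and the stable PcTF libraries are given only within a mean, so there is no replicate error and no test between conditions; a difference below is a difference between libraries, and the threshold used is a 2-fold change of FPKM + 0.1 in genes at 0.5 FPKM or more in either library. FPKM is the number of reads scaled to library depth (per M reads) and to transcript length (per kilobase). In bulk RNA, fewer cells that express a gene and less RNA per cell cannot be told apart.

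Estimated depth was 4.28 to 7.38 M reads per library (M, mega), at which 1 read on a gene of 3 kb was worth 0.0484 to 0.0834 FPKM. CBX8, whose chromodomain is part of PcTF, stood at 6.43 FPKM in PcTF-transfected U-2 OS cells against 0.610 FPKM in mock cells, at 8.85 against 0.287 FPKM in SK-N-SH and at 14.3 against 1.59 FPKM in K562, and the stable lines had 5.43 FPKM (the authors' mean for PcTF) against 1.28 FPKM in the ΔTF line. Cell type markers were at 1 FPKM or more for 6 of 6 genes in both K562 libraries and for 5 of 6 in both SK-N-SH libraries, where TH was listed at 0. For U-2 OS, 4 of 6 bone-lineage genes reached 1 FPKM in the transfected and mock libraries and 3 of 6 in the ΔTF line, with COL1A2 at 0 in all of them, and 4 of 6 also reached it in SK-N-SH, so that this list does not set U-2 OS apart.

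How firmly a value can be assigned to one member depends on the gene structure. Alpha and gamma members are spliced onto constant exons that all members of the cluster share, while each beta gene is counted as 1 exon. By GENCODE on hg19, 3 shared 3′ exons made up a median of 53.1% of an alpha transcript and 45.6% of a gamma transcript. Of all 50-base windows of a transcript, a median of 57.0% in alpha and 49.9% in gamma members also occurred in another member; in beta members the median was 17.7%, with the highest share, 45.5%, in PCDHB8. Reads from the shared exons cannot name a member, so alpha and gamma values rest on the authors' apportioning of reads, and the beta values are the more direct ones. The 2 short shared exons of each cluster are given here because every member's transcript holds them, in lower case throughout and on the plus strand of hg19.

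alpha shared exon 1, chr5:140358534-140358592: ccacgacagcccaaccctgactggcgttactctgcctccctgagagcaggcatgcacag
alpha shared exon 2, chr5:140362060-140362148: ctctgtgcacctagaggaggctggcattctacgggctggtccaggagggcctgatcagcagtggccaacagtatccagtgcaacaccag
gamma shared exon 1, chr5:140874374-140874432: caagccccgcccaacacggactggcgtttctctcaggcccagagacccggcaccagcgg
gamma shared exon 2, chr5:140884960-140885048: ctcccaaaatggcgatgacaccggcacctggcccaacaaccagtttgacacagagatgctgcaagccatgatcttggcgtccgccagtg

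Both exons of a pair have the same length in the alpha and gamma clusters, 59 and 89 bases, and they were found in all 15 alpha and all 22 gamma members.

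RefSeq promoter windows (GRCh38.p14, 250 bases before to 50 after the start) were matched by symbol for 47 of the 55 members; PCDHA3, PCDHA13, PCDHB6, PCDHB11, PCDHB17, PCDHB18, PCDHGA12 and PCDHGC5 were not matched. The core CGCT, on either strand, was held by 12 of 13 alpha, 14 of 14 beta and 20 of 20 gamma windows, against 69.4% of the windows of all 27305 genes in the table. CCCTC, a part of the CTCF motif, was held by 3 alpha, 0 beta and 9 gamma windows, against 70.3% of all. Each cluster had its own most common 8-mer around the CGCT core: GTGGCGCT in 13 of 14 beta windows (1.18% of all windows), ATGTCGCT in 9 of 13 alpha windows (0.245% of all) and GCCGCTGT in 11 of 20 gamma windows (1.60% of all). These 8-mers were chosen as the most common ones in the members, so their high share there is fixed by the choice. No member of another cluster held any of them. On the coding strand they began between position -97 and position -1 relative to the start, with medians at -52 in alpha, -65 in beta and -67 in gamma.

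The windows of members on which the results turn are printed from 120 bases before to 30 after the start, 5′ to 3′ on the plus strand of GRCh38.p14. Capitals mark the 8-mer of the member's own cluster, or, in PCDHB1 and PCDHGB7, the window nearest to it; PCDHAC2 has no capitals because no window within 1 base was found. The beta members are 3 of the most abundant ones (PCDHB5, PCDHB16 and PCDHB14), PCDHB12, which had the largest beta difference in U-2 OS, and PCDHB1, which stayed at or below 0.134 FPKM in every library. PCDHGB7 led in SK-N-SH, PCDHGA10 and PCDHGC3 kept a level in the ΔTF line, and PCDHAC2 was the leading alpha member of U-2 OS and SK-N-SH.

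PCDHB5, chr5:141135086-141135235: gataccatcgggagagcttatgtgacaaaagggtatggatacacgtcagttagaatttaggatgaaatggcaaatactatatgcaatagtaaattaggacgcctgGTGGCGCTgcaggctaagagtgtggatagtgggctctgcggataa
PCDHB16, chr5:141182267-141182416: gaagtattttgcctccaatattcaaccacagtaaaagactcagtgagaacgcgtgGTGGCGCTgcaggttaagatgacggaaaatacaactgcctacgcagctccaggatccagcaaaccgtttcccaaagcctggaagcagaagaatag
PCDHB14, chr5:141223223-141223372: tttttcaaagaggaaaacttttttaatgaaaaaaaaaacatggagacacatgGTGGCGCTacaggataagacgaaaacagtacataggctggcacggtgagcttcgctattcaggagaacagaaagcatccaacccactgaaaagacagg
PCDHB12, chr5:141208599-141208748: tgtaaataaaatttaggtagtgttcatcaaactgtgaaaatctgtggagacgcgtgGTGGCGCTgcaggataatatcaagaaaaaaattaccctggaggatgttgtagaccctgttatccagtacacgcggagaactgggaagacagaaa
PCDHB1, chr5:141051254-141051403: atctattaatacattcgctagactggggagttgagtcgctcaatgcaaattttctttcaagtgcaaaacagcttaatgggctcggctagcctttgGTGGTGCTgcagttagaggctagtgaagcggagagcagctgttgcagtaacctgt
PCDHGA10, chr5:141412867-141413016: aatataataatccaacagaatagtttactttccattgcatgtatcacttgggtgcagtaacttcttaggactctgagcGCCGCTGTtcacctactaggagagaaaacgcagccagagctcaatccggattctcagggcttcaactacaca
PCDHGB7, chr5:141417557-141417706: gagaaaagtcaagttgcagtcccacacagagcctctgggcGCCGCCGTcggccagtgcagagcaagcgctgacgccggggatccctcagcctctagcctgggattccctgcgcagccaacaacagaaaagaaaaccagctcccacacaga
PCDHGC3, chr5:141475846-141475995: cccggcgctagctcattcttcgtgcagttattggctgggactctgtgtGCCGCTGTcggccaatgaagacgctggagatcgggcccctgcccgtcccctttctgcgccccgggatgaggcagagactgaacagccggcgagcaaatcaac
PCDHAC2, chr5:140966356-140966505: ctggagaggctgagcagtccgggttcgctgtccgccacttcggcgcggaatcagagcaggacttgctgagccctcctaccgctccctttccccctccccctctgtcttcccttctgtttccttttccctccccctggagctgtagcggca

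PCDHB1 was the only matched beta member without the beta 8-mer, and its nearest window differed from it by C5T (positions counted from 1 at the 5′ end of the 8-mer, motif base first). PCDHGB7, the most abundant member in SK-N-SH, differed from the gamma 8-mer by T6C, and 6 further gamma members (PCDHGA2, PCDHGA3, PCDHGA4, PCDHGB2, PCDHGA5 and PCDHGA6) by C2T. The spelling with C2T, GTCGCTGT, occurred in 0.710% of all windows. It began at position -201 in PCDHGB2 and between -48 and -41 in the other members that held it. On the coding strand, a window within 1 base of the gamma 8-mer occurred in 20 of 20 gamma windows and 17.3% of all windows. For the beta 8-mer this was 14 of 14 beta windows and 15.0% of all, and for the alpha 8-mer 11 of 13 alpha windows and 5.35% of all. The choice of the 8-mers from these members favours such near matches too. The 4 matched C-type members also stood apart in base composition: their windows held 59.0% to 66.0% G + C, against 32.3% to 51.3% in the other 43 members and a median of 58.3% over all genes.

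**Figure D1:**
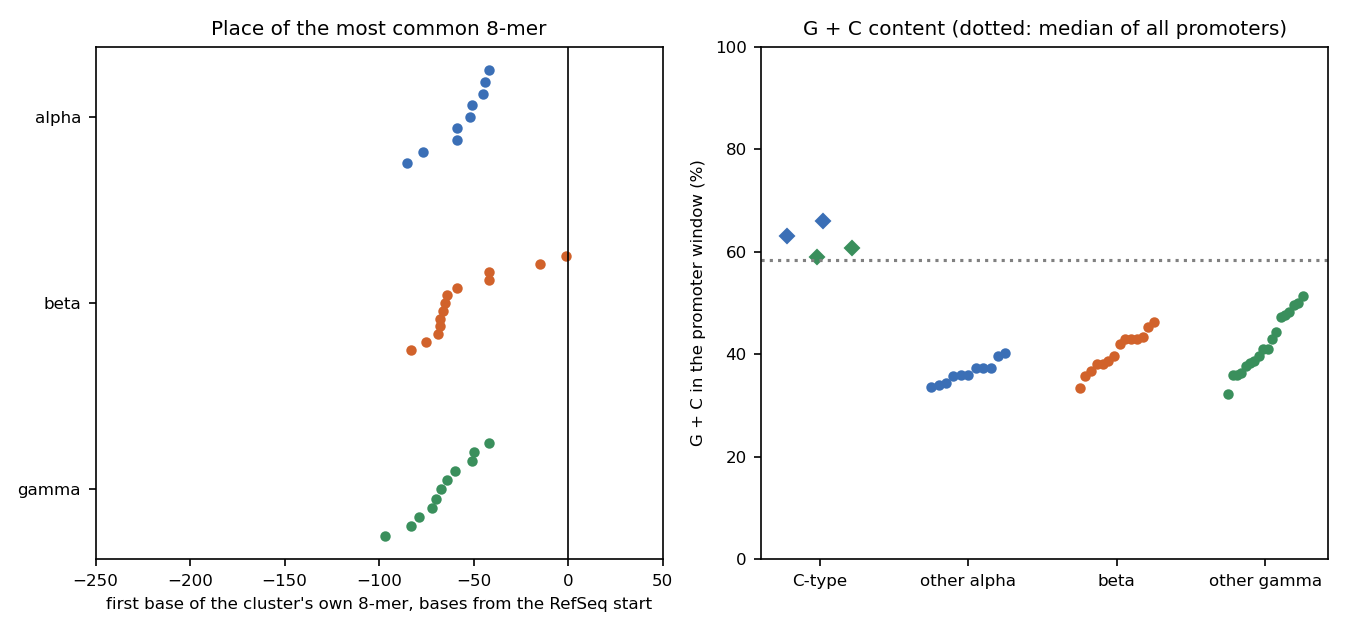
Left, the place of the first base of each cluster's most common 8-mer relative to the RefSeq start (horizontal axis, bases; 1 point per member that holds it, with 9 alpha, 13 beta and 11 gamma points). Right, G + C content (%) of the promoter window of each of 47 members; the C-type members lie between 59.0% and 66.0%, all above the other members, and the dotted line is the median of all genes, 58.3%.

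The 3 cell lines used the clusters to very different extents. Of the 55 members, 41 reached 0.5 FPKM in PcTF-transfected U-2 OS cells and 49 in mock U-2 OS cells, 42 and 38 in the SK-N-SH libraries in the same order, and 3 and 2 in the K562 libraries. In U-2 OS the beta cluster led: its members summed to 63.4 FPKM in PcTF-transfected cells and 114.5 FPKM in mock cells, against 30.8 and 42.2 FPKM for gamma and 24.0 and 32.5 FPKM for alpha members. In SK-N-SH the gamma cluster led, with sums of 109.2 FPKM in PcTF-transfected cells and 92.7 FPKM in mock cells, against 37.5 and 43.3 FPKM for beta and 21.8 and 17.7 FPKM for alpha members. Tables of different cell lines were normalized separately, so levels set side by side across lines describe their order only.

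Which members led differed between the lines. PCDHGB7, a gamma-B member, stood at 37.0 FPKM in PcTF-transfected and 39.9 FPKM in mock SK-N-SH cells, where it made up 33.9% and 43.1% of the gamma sum. In U-2 OS it stood at only 1.21 FPKM in PcTF-transfected and 2.22 FPKM in mock cells, and it was listed at 0 in both K562 libraries. PCDHGA7 showed the same order of lines, with 11.3 and 11.5 FPKM in PcTF-transfected and mock SK-N-SH cells against 0.495 and 0.651 FPKM in the U-2 OS pair. PCDHB5 was the reverse: it was the most abundant member of all in U-2 OS, with 11.1 FPKM in PcTF-transfected and 23.7 FPKM in mock cells, and stood at 0.347 and 0.0712 FPKM in the SK-N-SH pair, which is 6 and 1 estimated reads. Over the 55 members, Spearman's rho between the mock libraries of SK-N-SH and U-2 OS was 0.46, against 0.93 between PcTF-transfected and mock U-2 OS cells and 0.90 between the SK-N-SH pair; the points share their gene lengths and, in part, their exons.

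**Figure D2:**
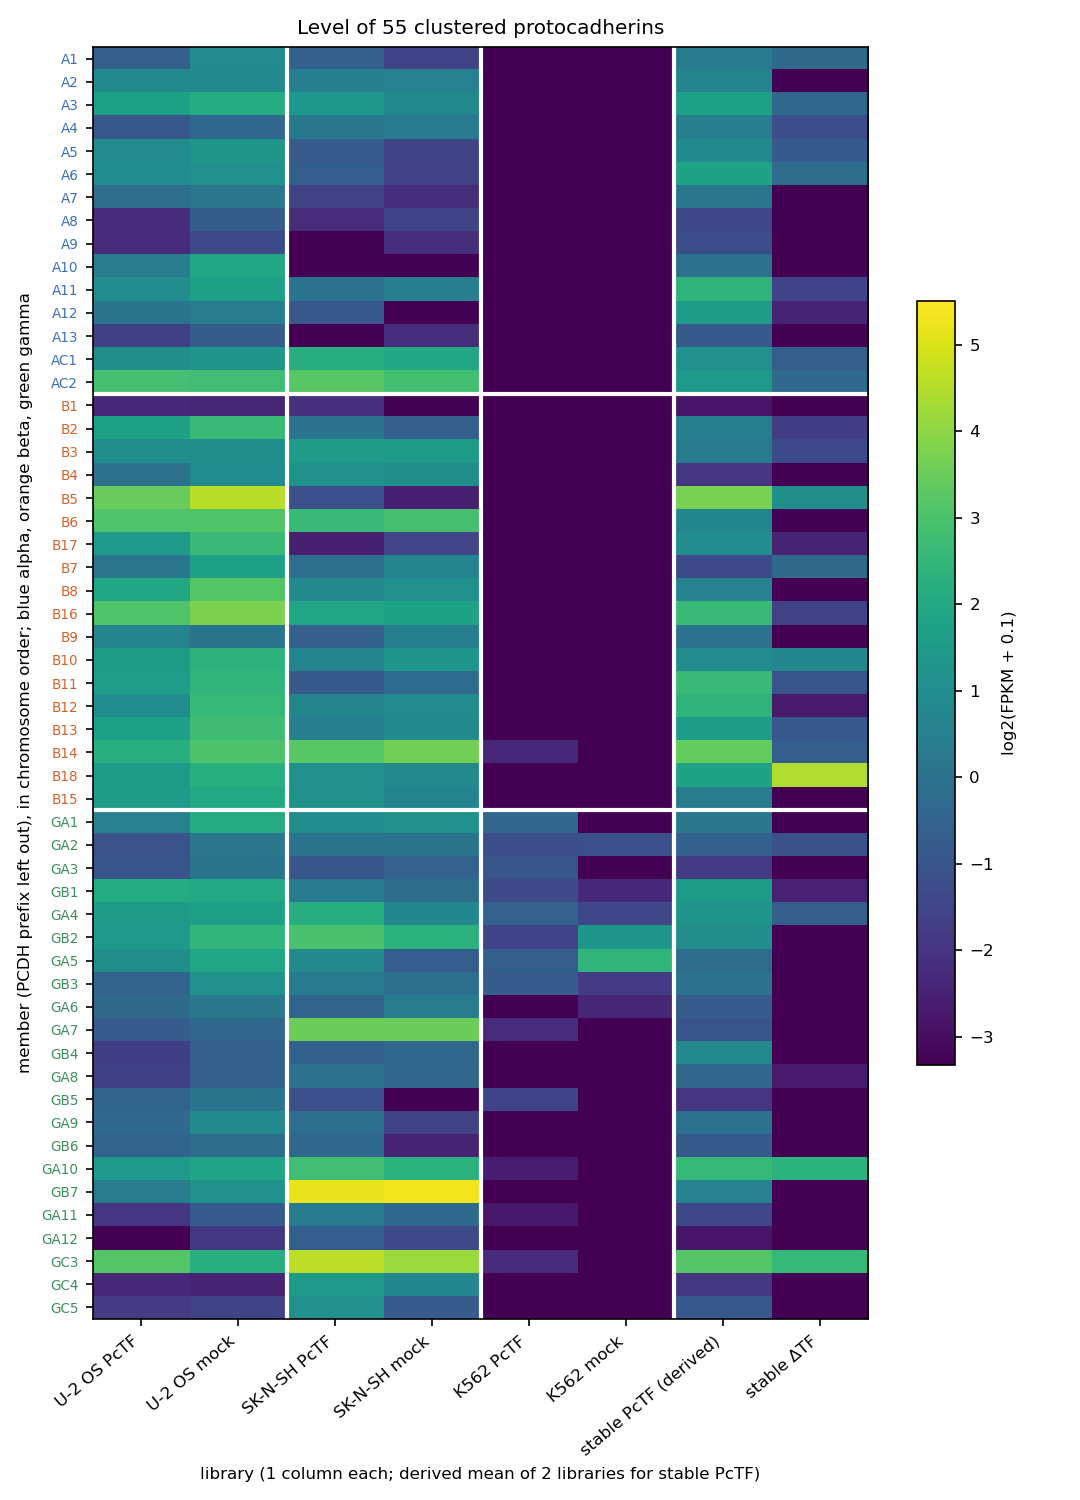
Level of each of the 55 members (rows, in chromosome order) in each library (columns), as log2(FPKM + 0.1) on a color scale; stable PcTF is the mean of 2 libraries derived from the deposited mean. U-2 OS is bright in the beta block, SK-N-SH at PCDHGB7, PCDHGC3 and PCDHGA7, K562 dark apart from a few gamma members, and the ΔTF line dark apart from PCDHB18, PCDHGC3, PCDHGA10 and a few others.

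In U-2 OS cells, some members of each of the 3 clusters were lower with PcTF than in mock cells. Of 49 members that passed the filter, 17 were lower by 2-fold or more and 0 were higher, while over all 13952 genes tested 7.08% were lower and 13.4% were higher by that measure. The lower ones were 3 of 14 alpha, 6 of 17 beta and 8 of 18 gamma members. PCDHB17, whose GENCODE name marks a pseudogene, is among the lower beta members. The median log2 difference over the members was -0.82, against 0.08 over all genes tested, and 44 of the 49 members lay below 0. Of the 49, 8 passed the filter through their mock value alone; among the 41 at 0.5 FPKM or more in both libraries, 12 were lower and 0 higher. PCDHGB2, at -1.05, was just past the threshold, and PCDHB4, at -0.99, just short of it. The 6 members below the filter were PCDHA9, PCDHB1, PCDHGA11, PCDHGA12, PCDHGC4 and PCDHGC5.

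The largest differences came from members of low to middle level. PCDHGB3 stood at 0.625 FPKM in PcTF-transfected cells and 2.22 FPKM in mock cells, a log2 difference of -1.68. PCDHB12 had 1.89 FPKM with PcTF and 5.94 FPKM in mock cells (-1.60), PCDHGA1 had 1.34 and 4.24 FPKM (-1.60), and PCDHA1 had 0.534 and 1.80 FPKM (-1.58). All 4 encode ordinary, non-C-type members, and no other cell line had a lower value with PcTF by 2-fold or more for any of them. With 1 FPKM added in place of 0.1, PCDHGB3 (-0.99) and PCDHA1 (-0.87) fell short of 2-fold.

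For the beta members the reads behind each value can be estimated, since low FPKM values of single-exon genes step by what 1 read is worth. At the estimated depths 82 of 84 nonzero values were whole within 0.1 read. The depths were fitted to make such values whole, with the beta members among the genes used. This share is therefore favoured by the fit and is no separate check of it. The beta genes together drew 830 estimated reads in PcTF-transfected and 1689 in mock U-2 OS cells, or 193.9 and 346.2 reads per M reads of depth, a log2 ratio of -0.84 with an exact 95% interval of -0.96 to -0.72. This interval and those that follow cover counting error only, not the spread between cultures. For 13 of 18 beta members the whole interval lay below 0, and for 0 it lay above. PCDHB5 had 129 reads with PcTF and 313 in mock cells (log2 ratio -1.09, interval -1.40 to -0.79). PCDHB16 had 163 and 303 reads in the same order (-0.71, interval -0.99 to -0.43). PCDHB6 was one of the exceptions, with 101 and 118 reads and an interval of -0.43 to 0.36, and PCDHB9 the only beta member past the filter with a higher value, 25 against 19 reads, with an interval of -0.33 to 1.53. At these depths a difference was therefore not detectable for either of them.

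None of the C-type members past the filter was lower by 2-fold or more. PCDHGC3, the most widely expressed of them here, stood at 8.63 FPKM in PcTF-transfected and 4.50 FPKM in mock U-2 OS cells, a log2 difference of 0.92 and the highest among the 49 members. PCDHAC2 had 7.23 FPKM with PcTF and 6.76 FPKM in mock cells, and PCDHAC1 had 1.94 and 2.35 FPKM. Of the 3 C-type members that passed the filter 0 were lower by 2-fold or more, against 17 of the 46 others and 7.08% of all genes. These 3 members are too few to set the C-type apart from the others. The C-type sum was 18.1 FPKM with PcTF and 14.0 FPKM in mock cells. PCDHGC4 (0.0982 and 0.0848 FPKM) and PCDHGC5 (0.195 and 0.252 FPKM) were too low to compare.

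Other abundant members of the line followed the general direction to different degrees. PCDHB14 had 4.52 FPKM with PcTF and 8.17 FPKM in mock cells, and PCDHB18 had 2.84 and 4.49 FPKM. PCDHA10 stood at 1.25 FPKM with PcTF and 3.77 FPKM in mock cells, a log2 difference of -1.52, whereas PCDHA3, the second most abundant alpha member, had 3.11 and 4.33 FPKM (-0.46). PCDHGB2 had 2.61 and 5.50 FPKM. Bone-lineage marker genes summed to 199.4 FPKM in PcTF-transfected and 426.6 FPKM in mock cells, with COL1A2 at 0 in both. Of 4 that passed the filter 2 were lower by 2-fold or more, beside 7.08% of all genes. The part of this in the protocadherin values was not tested.

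**Figure D3:**
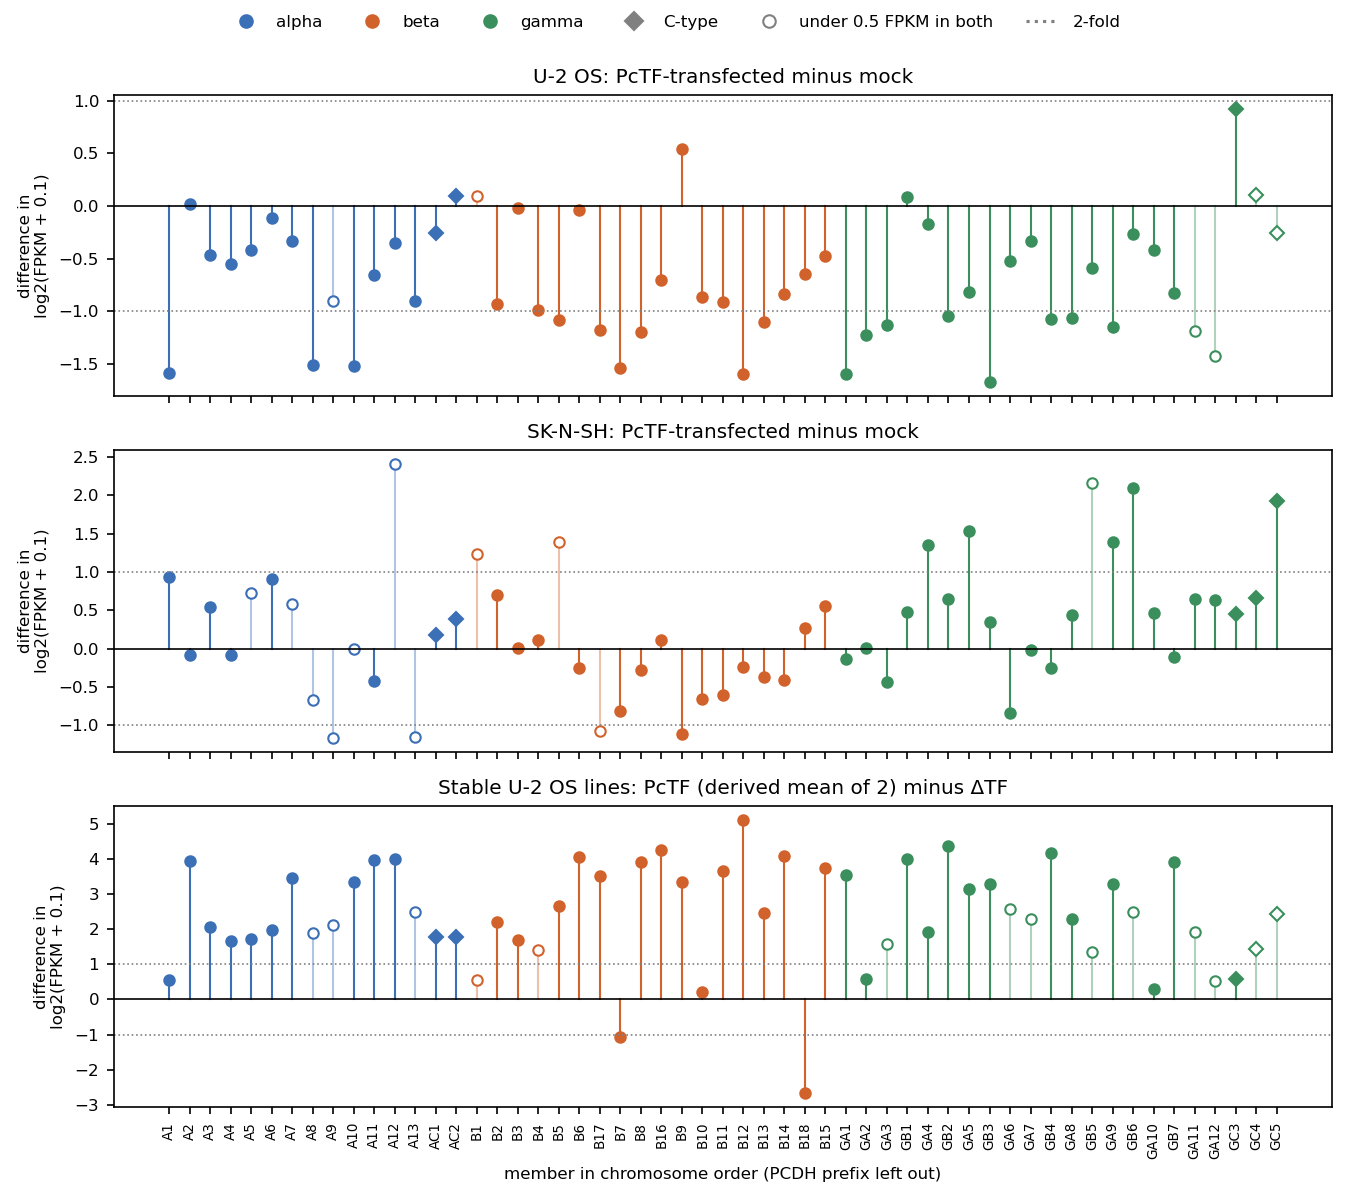
Difference in log2(FPKM + 0.1) for each of the 55 members in chromosome order, with PcTF-transfected minus mock U-2 OS (top), PcTF-transfected minus mock SK-N-SH (middle) and stable PcTF (derived mean of 2 libraries) minus ΔTF (bottom); vertical scales differ, diamonds are C-type members and open symbols are below 0.5 FPKM in both. In U-2 OS 44 of 49 filled symbols lie below 0, in SK-N-SH 18 of 44 do, and in the stable lines 39 of 41 lie above 0 with PCDHB18 and PCDHB7 below.

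In SK-N-SH cells members differed in both directions. Of 44 members that passed the filter, 5 were higher by 2-fold or more with PcTF and 1 was lower, against 7.51% higher and 3.62% lower among all 13328 genes tested. The share of members that were higher was 11.4%. Of the 44, 6 passed through their PcTF value alone and 2 through their mock value alone, and among the 36 at 0.5 FPKM or more in both libraries 2 were higher and 1 was lower. All 5 were gamma members, and the median log2 difference was 0.46 in gamma, 0.29 in alpha and -0.26 in beta members, against 0.10 over all genes tested. The 11 members below the filter were 7 alpha, 3 beta and 1 gamma.

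PCDHGB6 had the largest difference, 0.692 FPKM in PcTF-transfected against 0.0851 FPKM in mock SK-N-SH cells (log2 difference 2.10). PCDHGC5, a C-type member, had 2.09 against 0.474 FPKM (1.93), PCDHGA5 had 1.68 against 0.516 FPKM (1.53), and PCDHGA9 had 0.822 against 0.253 FPKM (1.39). PCDHGA4 was the fifth, with 4.37 against 1.65 FPKM. With 1 FPKM added, PCDHGB6 (0.64), PCDHGA5 (0.82) and PCDHGA9 (0.54) fell short of 2-fold. All of these stood well below the dominant PCDHGB7, which differed by -0.11. In U-2 OS none of the 5 was higher with PcTF: PCDHGB6 had 0.620 FPKM in PcTF-transfected and 0.763 FPKM in mock U-2 OS cells, PCDHGA5 had 1.98 and 3.57 FPKM, PCDHGA9 had 0.715 and 1.70 FPKM, and PCDHGA4 had 2.81 and 3.17 FPKM. PCDHB9 was the only member lower by 2-fold or more, with 0.545 against 1.29 FPKM, or 14 against 27 reads (log2 ratio -1.25, exact interval -2.29 to -0.26), and it too fell short with 1 FPKM added (-0.57).

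All 5 C-type members were higher with PcTF in SK-N-SH, 1 of them by 2-fold or more, beside 7.51% of all genes. Their median log2 difference was 0.44, against 0.46 over the gamma members and 0.10 over all genes tested. These 5 members are too few to set the C-type apart from the others. PCDHGC3 stood at 24.7 FPKM in PcTF-transfected and 18.1 FPKM in mock cells, PCDHAC2 at 9.24 and 7.02 FPKM, PCDHAC1 at 4.39 and 3.86 FPKM, and PCDHGC4 at 2.57 and 1.58 FPKM. Their sum was 42.9 FPKM with PcTF and 31.0 FPKM in mock cells. The beta genes drew 723 estimated reads with PcTF and 677 in mock cells, or 113.2 and 130.4 reads per M reads of depth (log2 ratio -0.20, exact interval -0.36 to -0.05). PCDHB14, the leading beta member of this line with 9.15 and 12.2 FPKM, accounted for 20.9% and 24.2% of these reads, and PCDHB16, with 3.63 and 3.34 FPKM, for 14.8% and 11.8%. PCDHB12 had 1.51 and 1.80 FPKM, PCDHB6 6.20 and 7.42 FPKM, PCDHB8 1.68 and 2.07 FPKM and PCDHB18 2.06 and 1.69 FPKM. The interval lay wholly below 0 for 2 of the 18 beta members, PCDHB9 and PCDHB14, and wholly above 0 for none of them.

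The remaining SK-N-SH values of members named for U-2 OS showed no common direction. PCDHGB2 had 7.63 FPKM with PcTF and 4.83 FPKM in mock cells, PCDHGB3 1.12 and 0.858 FPKM, and PCDHGA1 1.91 and 2.12 FPKM. PCDHA3 had 2.54 and 1.70 FPKM and PCDHA1 0.554 and 0.244 FPKM, while PCDHA10 was listed at 0 in both libraries.

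**Figure D4:**
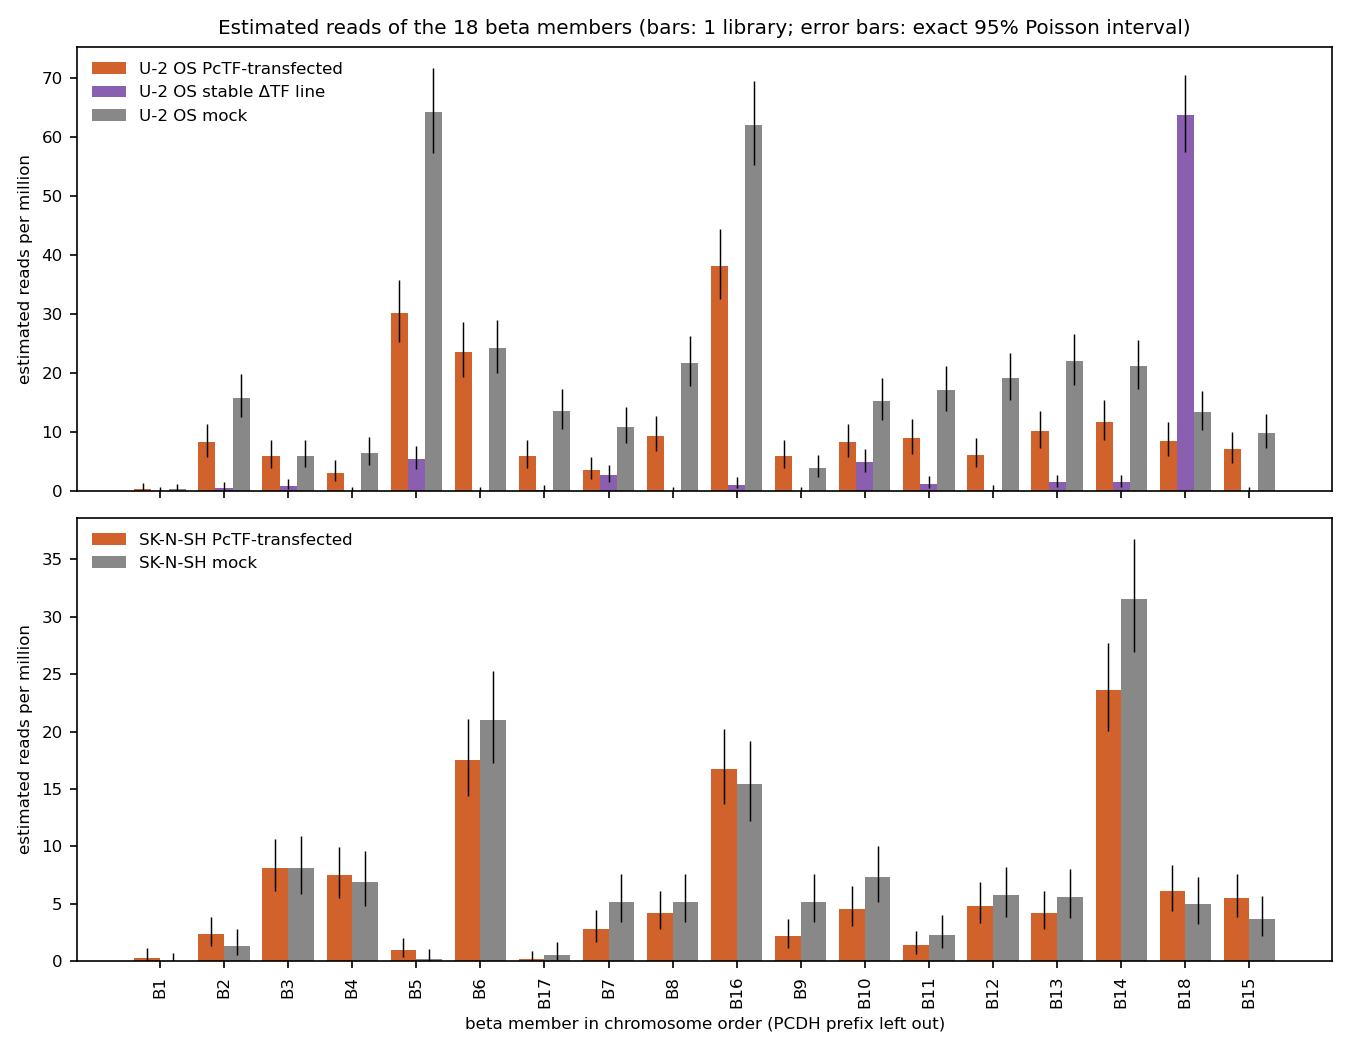
Estimated reads per M reads of depth of each of the 18 beta members (horizontal axis, chromosome order) in 3 U-2 OS libraries (top) and 2 SK-N-SH libraries (bottom); each bar is 1 library and the error bars are exact 95% Poisson intervals, counting error only. In U-2 OS the PcTF bar lies below the mock bar for most members, and the ΔTF line has 1 tall bar, PCDHB18, with 369 of its 482 beta reads.

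K562 cells hardly expressed the clusters. All 15 alpha members were listed at 0 in both libraries, and of the beta members only PCDHB14 had any reads, 2 in PcTF-transfected and 0 in mock cells. A count of 0 allows up to 3 reads, which is 0.0881 to 0.184 FPKM for the other beta genes in the PcTF library and 0.139 to 0.291 FPKM for the 18 in the mock library. Of the C-type members only PCDHGC3 was above 0, at 0.110 FPKM with PcTF. Of the 22 gamma members, 13 were above 0 in PcTF-transfected and 7 in mock cells. Such counts grow with depth, which was estimated at 7.38 M reads for the PcTF library and 4.66 M reads for the mock library. Over all genes, 14975 and 13246 were above 0 in the same order. The filter was passed by 4 members, with 1 higher and 2 lower by 2-fold or more. Over all 12655 genes 30.2% were higher and 12.1% lower, and 4 members are too few to set against those shares.

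The mock K562 library was dominated by PCDHGA5 and PCDHGB2, which made up 88.7% of its protocadherin signal. PCDHGA5 stood at 0.542 FPKM in PcTF-transfected and 5.53 FPKM in mock cells (log2 difference -3.13), equal to about 18 and 118 reads over the length of its transcript. PCDHGB2 stood at 0.242 and 2.39 FPKM (-2.87), about 8 and 51 reads. PCDHGA1 was listed at 0 in mock cells and had 0.654 FPKM with PcTF, about 22 reads. PCDHGA4, the fourth member past the filter, had 0.580 and 0.276 FPKM. Below the filter, PCDHGB3 had 0.481 FPKM with PcTF and 0.191 FPKM in mock cells, PCDHGA7 had 0.116 FPKM with PcTF and 0 in mock cells, and PCDHGA9 and PCDHGB6 were listed at 0 in both. PCDHGB2 was the only member lower by 2-fold or more in 2 of the 3 transfected lines, U-2 OS and K562. Erythroid marker genes summed to 7514 FPKM in PcTF-transfected and 1698 FPKM in mock K562 cells. Of these, 4 of 6 were higher by 2-fold or more, beside 30.2% of all genes. The part of this in the protocadherin values was not tested.

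In the stable U-2 OS lines, 43 of the 55 members reached 0.5 FPKM in the authors' mean for PcTF and 40 in the derived pair, against 13 in the ΔTF line. The deposited PcTF column is the mean of the 2 stable PcTF libraries and the PcTF-transfected U-2 OS library described above, so it shares a library with the first comparison; the mean of the stable pair alone was derived from it and carries no spread. By the deposited mean, 36 of 43 members that passed the filter were higher with PcTF by 2-fold or more and 1 was lower. Differences between these lines were common throughout the genome, with 38.4% of 14212 genes higher and 14.1% lower. Among the 36 were 11 of 12 alpha, 13 of 16 beta and 12 of 15 gamma members, and the median log2 difference was 3.15, against 0.58 over all genes tested. With the derived pair, 34 of 41 were higher and 2 were lower (39.1% and 13.2% of all genes). These counts lean on the filter, since 30 of the 43 passed through their PcTF value alone; of the 13 at 0.5 FPKM or more in both columns, 7 were higher and 1 was lower. Of the 43 members, 16 were listed at 0 in the ΔTF line, where the difference depends on the 0.1 FPKM added, and over the 27 above 0 in both columns the median was 2.02. Of 5 bone-lineage genes that passed the filter, 3 were also higher with PcTF, as were 3 of 4 with the derived pair, led there by RUNX2 with 17.3 against 2.66 FPKM. POSTN, at 0 in the ΔTF line, had 3.01 FPKM in the authors' mean but 0.0125 FPKM in the derived pair, so its signal came from the transfected library, and COL1A2 was at 0 in all of these columns. The part of these genes in the protocadherin values was not tested.

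Several abundant members of U-2 OS cells had few or no reads with ΔTF. PCDHB6 had 3.81 FPKM in the authors' mean and 1.55 FPKM in the derived pair and was at 0 in the ΔTF line. The derived value was 8.47 times the level of the 3 reads that a count of 0 allows. Derived values carry no error of their own, so such a ratio is not a lower bound. PCDHB8, with 2.18 and 1.40 FPKM against 0, had a derived value 6.81 times the level of 3 reads on that gene. PCDHB12 had 4.12 and 5.24 FPKM against 0.0538 FPKM, which is 1 read. PCDHGB2 had 2.18 and 1.96 FPKM and was listed at 0 with ΔTF. PCDHB16 stood at 6.80 and 6.08 FPKM against 0.224 FPKM, and PCDHB14 at 8.59 and 10.6 FPKM against 0.535 FPKM. PCDHB5, the leading member of U-2 OS, had 12.4 and 13.0 FPKM against 1.98 FPKM, and PCDHB9 had 1.10 and 0.920 FPKM against 0.

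The 7 members past the filter that were not higher with PcTF by 2-fold or more were PCDHB18, PCDHB7, PCDHB10, PCDHA1, PCDHGA2, PCDHGA10 and PCDHGC3. PCDHB18 was taken from GENCODE under the pseudogene name PCDHB18P, as was PCDHB17 under PCDHB17P. PCDHB18 stood at 3.13 FPKM in the authors' mean and 3.27 FPKM in the derived pair against 21.5 FPKM in the ΔTF line. Its log2 difference was -2.74 by the authors' mean. It held 369 of the 482 beta reads of the ΔTF library, or 76.6% (exact 95% interval 72.5% to 80.3%), although only 9.37% of its 50-base windows occur in another member. Its share was 36 of 830 reads in PcTF-transfected and 65 of 1689 in mock U-2 OS cells. The reads carry no strand, so transcription of the opposite strand cannot be told apart. PCDHGC3 had 8.71 and 8.75 FPKM against 5.88 FPKM, and PCDHGA10 had 4.79 and 5.89 FPKM against 4.82 FPKM. PCDHB10 had 2.11 and 1.83 FPKM against 1.58 FPKM, and PCDHB7 had 0.529 and 0.295 FPKM against 0.737 FPKM. PCDHGA2 had 0.510 and 0.574 FPKM against 0.351 FPKM. PCDHGC3 and PCDHGA10 together made up 91.3% of the gamma sum of the ΔTF line, 11.7 FPKM.

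The other C-type members past the filter and 11 of 12 alpha members were higher with PcTF. PCDHAC2 had 4.16 FPKM in the authors' mean and 2.63 FPKM in the derived pair against 0.704 FPKM with ΔTF, and PCDHAC1 had 2.04 and 2.08 FPKM against 0.539 FPKM. PCDHA3 had 3.14 and 3.15 FPKM against 0.685 FPKM, and PCDHA10 had 1.02 and 0.910 FPKM against 0. PCDHA1 differed least among the alpha members past the filter, with 0.921 and 1.11 FPKM against 0.729 FPKM. PCDHGA1, PCDHGA5, PCDHGA7, PCDHGA9, PCDHGB3, PCDHGB6, PCDHGB7, PCDHGC4 and PCDHGC5 were all listed at 0 with ΔTF, and in the derived pair they lay between 0.170 FPKM (PCDHGC4) and 1.41 FPKM (PCDHGB7). The authors' mean and the derived pair stood at 1.15 and 1.05 FPKM for PCDHGA1, 1.18 and 0.775 FPKM for PCDHGA5, 0.817 and 0.868 FPKM for PCDHGA9, 0.786 and 0.867 FPKM for PCDHGB3, and 0.517 and 0.466 FPKM for PCDHGB6. For PCDHGA7 they were 0.424 and 0.389 FPKM and for PCDHGC5 0.357 and 0.438 FPKM, which left both below the filter.

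Which of the lines stood apart was examined by setting both against mock U-2 OS cells. This comparison ran across tables and was chosen after the values were seen. Both stable lines received doxycycline and the mock cells did not, while the mock cells received the transfection vehicle. Engineered line, transgene, doxycycline and vehicle therefore cannot be told apart in it. For 325 genes the authors' mean equalled the part that the PcTF-transfected library adds to it, within 0.01%. For these genes that library therefore had the same scale in both tables. For 10 genes the mean lay more than 1% below that part. Whether the mock and ΔTF libraries share a scale was not tested. The ΔTF line was lower than mock cells by 2-fold or more in 45 of 49 members and higher in 1, PCDHB18, while 33.9% of all 13866 genes were lower and 27.1% higher. The filter favours lower calls here, since 36 of the 49 passed through their mock value alone; of the 13 at 0.5 FPKM or more in both, 10 were lower and 1 was higher. The derived pair of stable PcTF libraries was lower than mock cells in 19 of 49 members and higher in 2, with 8.54% of all 14362 genes lower and 27.7% higher, and of the 40 at 0.5 FPKM or more in both 14 were lower and 2 higher. The beta sum was 28.0 FPKM in the ΔTF line and 59.0 FPKM in the derived pair, against 114.5 FPKM in mock cells, and without PCDHB18 these sums were 6.49, 55.7 and 110.0 FPKM in the same order. The order of the members in the derived pair followed that in mock U-2 OS cells with a Spearman's rho of 0.75 over 55 members, against 0.49 for the ΔTF line, as a description.

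Position within a cluster was at most weakly related to the differences. Across the members that passed the filter, Spearman's rho between chromosome order and log2 difference lay between -0.26 and 0.39 in the 9 combinations of 3 clusters with U-2 OS, SK-N-SH and the stable lines. TAF7, a general transcription factor subunit whose gene lies between the beta and gamma clusters (hg19, chr5:140698057-140700351), had 99.3 FPKM in PcTF-transfected and 113.7 FPKM in mock U-2 OS cells and 77.3 and 81.3 FPKM in the SK-N-SH pair; it is given for its place. Of 28 other genes within 500 kb of the clusters, TAF7 included, 22 passed the filter in U-2 OS, with 2 higher by 2-fold or more (FCHSD1 with 1.15 against 0.348 FPKM, DND1 with 1.50 against 0.585 FPKM) and 2 lower (APBB3 with 0.242 against 0.743 FPKM, and an uncharacterized locus, LOC100505658, with 0.205 against 0.720 FPKM). Their median log2 difference was 0.02, against -0.82 over the protocadherin members. PCDH1 and PCDH12 also lie within this distance, but as nonclustered protocadherins they are counted below and not among the 28. Over all genes tested in U-2 OS, 13.4% were higher and 7.08% lower. In the stable lines 4 of 22 were higher, led by ANKHD1-EIF4EBP3 with 17.7 against 2.91 FPKM, and 5 were lower, led by TMCO6 with 3.81 against 16.3 FPKM, at a median of 0.07. Over all genes tested in these lines, 38.4% were higher and 14.1% lower.

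The nonclustered protocadherins, single genes outside the clusters, were mostly low. PCDH1 and PCDH12 among them lie on chromosome 5 within 500 kb of the gamma cluster. Of 12, 5 passed the filter in U-2 OS and 3 of these were lower with PcTF by 2-fold or more, beside 7.08% of all genes. PCDH18 stood at 2.13 FPKM in PcTF-transfected and 11.6 FPKM in mock U-2 OS cells and at 35.1 and 90.0 FPKM in the SK-N-SH pair, so that it was lower by 2-fold or more in both lines. PCDH9 had 0.630 and 1.73 FPKM in the U-2 OS pair, and PCDH10 was listed at 0 with PcTF and had 0.991 FPKM in mock cells. In SK-N-SH 2 of 4 were lower, beside 3.62% of all genes. These were PCDH18 and PCDH7, of which PCDH7 had 1.34 and 2.85 FPKM. In the stable lines 3 of 4 were higher in the authors' mean, PCDH17 with 1.98 against 0.0884 FPKM, PCDH7 with 9.89 against 3.61 FPKM and PCDH18 with 2.11 against 0.756 FPKM. Of all genes 38.4% were higher there, and 4 or 5 genes are too few to set against such shares.

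Genes for the factors that shape or silence the clusters differed little in the transfections of U-2 OS and SK-N-SH. Of 25 that passed the filter (CTCF, cohesin and its loaders, DNA methyltransferases, SMCHD1, SETDB1 and Polycomb subunits among them), 0 differed by 2-fold or more in either line. Over all genes tested, 13.4% were higher and 7.08% lower in U-2 OS, and 7.51% and 3.62% in SK-N-SH. CTCF and RAD21 are named for their roles: CTCF, the zinc finger protein that binds the promoters, had 30.1 FPKM in PcTF-transfected and 33.0 FPKM in mock U-2 OS cells, and RAD21, a cohesin subunit, 222.3 and 315.1 FPKM. In K562 4 of 25 were higher by 2-fold or more, a smaller share than the 30.2% of all genes, namely SETDB1 (15.1 against 4.03 FPKM), a histone methyltransferase, DNMT3B (27.9 against 8.36 FPKM), a DNA methyltransferase, WIZ (8.37 against 2.91 FPKM) and SMCHD1 (24.2 against 11.8 FPKM). In the stable lines 11 of 25 were higher and 4 lower in the authors' mean than with ΔTF, near the 38.4% and 14.1% of all genes. The lower ones included the Polycomb subunit EED, with 11.4 against 75.9 FPKM, and DNMT3B, with 3.85 against 18.4 FPKM, and the higher ones MAU2, a cohesin loader (3.76 against 0.519 FPKM), and DNMT3A (10.0 against 2.58 FPKM). Their part in the protocadherin values was not tested.

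Of 14 genes for protein partners of the protocadherins, such as focal adhesion kinases and the WAVE complex that drives actin branching, 13 passed the filter in U-2 OS and 1 was higher by 2-fold or more, the kinase FYN with 7.64 against 3.44 FPKM. Over all genes tested in U-2 OS, 13.4% were higher and 7.08% lower. None of 14 differed by 2-fold or more in SK-N-SH, where 7.51% of all genes were higher and 3.62% lower. In K562, 1 of 13 was lower, beside 12.1% of all genes, namely CYFIP2, a WAVE subunit, with 0.321 against 7.09 FPKM. In the stable lines 8 of 13 were higher and 1 was lower, beside 38.4% and 14.1% of all genes, with FYN at 5.72 against 0.939 FPKM, PTK2B at 0.970 against 0.153 FPKM, NCKAP1 at 152.1 against 47.3 FPKM and WASF1 at 14.4 against 4.73 FPKM.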

How the data were processed

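RNA-seq of 9 of the series' 10 libraries was used in 4 tables; the remaining one was not analysed here. Per the submitters' processing notes the aligners were TopHat2 2.1.0 and Bowtie2 and the build hg19, and the authors computed the deposited FPKM values with Cuffdiff, scaled to depth and transcript length. The strand of reads was not kept. The deposited fold changes, p-values and q-values were not used. The deposited mean of 3 PcTF libraries was set against its transfected library: 325 of 16049 genes equalled that value divided by 3 within 0.01%, and 10 lay more than 1% below it, which a plain mean does not allow; for 0 members was the derived value negative. The stable pair was derived as (3 × mean − transfected library) / 2.

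Differences are log2 of FPKM + 0.1 for genes at 0.5 FPKM or more in either column, called at 2-fold. Depth was estimated from single-exon genes, the beta members among them, whose low values step by whole reads. The tolerance was 0.1 read, and Cuffdiff's default fragments of 200 ± 80 bases were assumed. Between 16 and 54 values were used per library, of which 88.9% to 100% were whole at the depth chosen to make them so. PCR duplicates are not independent molecules. The depth and fold calculations were tested on simulated data. Exact binomial intervals (95%) and a floor of 3 reads used those reads. Gene structures came from GENCODE v44lift37 and promoters from RefSeq, 1 window per gene. The members named with all their values were the 4 most abundant per cluster, up to 4 higher and 4 lower per comparison, members shared between lines, and the C-type members; others are named for a stated reason. From the other gene lists up to 4 genes past 2-fold were named per comparison. Members and lists were chosen with earlier results of these data known. Alternatives changed the pseudocount, the filter, the centring, the most abundant member and the libraries. Python 3.11.15, numpy 2.4.6, scipy 1.17.1 and pandas 2.3.3 were used.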

Additional observations from a re-analysis of the deposited data

Results flagged for a closer look

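Several values had opposite directions in different lines. With 1 library per group, none of these differences between lines was tested. The log2 ratio of PcTF-transfected over mock cells in the alpha sum was -0.44 for U-2 OS but 0.30 for SK-N-SH. For the gamma sum, U-2 OS gave -0.45 and SK-N-SH gave 0.24. The intervals from counting error alone (reads estimated from transcript length) were -0.59 to -0.28 and 0.13 to 0.46 for alpha, and -0.60 to -0.30 and 0.16 to 0.32 for gamma. The beta sum was below 0 in both lines. Among single members, PCDHGA9 differed by -1.15 (log2) in U-2 OS, while SK-N-SH gave 1.39. PCDHGA1 had -1.60 in U-2 OS and 2.91 in K562, where it was listed at 0 in mock cells. PCDHGA5 had 1.53 in SK-N-SH and -3.13 in K562. All 3 are gamma members, whose values share exons with the rest of the cluster.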

How the results depend on the processing

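No paired analysis was possible because no 2 conditions compared have more than 1 library column each. Of 84 alternative values of counts, sums and detection, 53 stayed within 1.5 times the reported count or within the counting interval, 27 moved further and 4 changed sign. For the stable lines, the interval took the authors' mean as 1 library at the depth of the PcTF-transfected U-2 OS library. With 1 FPKM added, 6 members were lower in U-2 OS, 2 were higher and 0 lower in SK-N-SH, and 0 were higher in K562. With nothing added, 2 were higher in K562. Without a filter, 9 were higher and 4 lower in SK-N-SH and 8 higher in K562; at 1 FPKM or more in either library, 3 were higher in SK-N-SH and 0 in K562. Without the most abundant member, the log2 ratio of the U-2 OS sums was -0.62 for alpha and -0.76 for gamma, that of the SK-N-SH gamma sum 0.45, that of the K562 gamma sum 0.075 (without PCDHGA5, a change of sign), and those of the stable lines 3.14 for beta (without PCDHB18) and 1.98 for gamma. Centred on the median gene (a shift of 0.28 in K562 and 0.31 in the stable lines), the SK-N-SH gamma sum had 0.15 and the stable sums 2.24 for alpha, 0.80 for beta and 1.13 for gamma. Without PcTF-transfected U-2 OS replicate 1, 2 members were lower in the stable lines, PCDHB18 and PCDHB7. With mock U-2 OS cells in place of the ΔTF line, an alternative chosen after seeing the data, 2 members were higher and 19 lower in the derived pair, and the sums changed sign, to -0.23 for alpha, -0.96 for beta and -0.39 for gamma. Above 0 FPKM, 14 members were detected in PcTF-transfected and 7 in mock K562 cells and 27 in the ΔTF line; at 1 FPKM, 0 were detected in PcTF-transfected K562 cells and 5 in the ΔTF line. The causes of these shifts were not tested. Of 206 alternative values of named members, 55 lay outside the counting interval or had no interval. Of the 43 values past 2-fold, 13 fell short of it with 1 FPKM added and 0 with centring, and 0 of the 24 in the stable lines did without the transfected library; 0 changed sign. Depth limits members below about 1 FPKM, where a few reads decide a 2-fold call.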
